A study of Macaca mulatta with 2 samples.

Results

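The immediate early genes examined here were *FOS*, *FOSB*, *FOSL2*, *JUN*, *JUNB*, *JUND*, *EGR1*, *ATF3*, *NR4A1* and *IER2*. They were picked by symbol from a table of 16684 genes, and all 10 were listed. The table holds bulk RNA-seq of wild-type, untreated optic nerves of the rhesus macaque (*Macaca mulatta*), as 1 condition with 2 libraries named Rep1 and Rep2. The methods give the source as a 12-year-old male whose eyes were collected postmortem, whereas the deposited design text speaks of 2 animals, so the libraries may be nerves of 1 animal or of 2. The libraries were not paired with the individual sample titles, and the spread between them may be technical. Values are in TPM, the share that the length-corrected reads of a gene take of all those of a library. Levels of different genes can thus be set side by side as far as the lengths used are right.

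Immediate early genes are switched on within minutes of a stimulus, without new protein synthesis, by transcription factors already present in the cell. Growth factors, calcium, stress and injury act through kinase cascades on the serum response factor, which binds CArG boxes, and on CREB, which binds the cyclic AMP response element (CRE). Fos proteins pair with Jun proteins through leucine zippers and form the AP-1 complex, which reads the TPA response element. *EGR1* encodes a zinc finger factor, *ATF3* a stress-induced leucine zipper factor, *NR4A1* an orphan nuclear receptor and *IER2* a small nuclear protein. In the nervous system these genes are used as markers of recent activity and, for *JUN* and *ATF3*, of axon injury. Tissue removal and handling are also known to induce them.

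The stretches before 6 of the genes are shown first, with some of the short promoter elements in them marked. They were read from the Mmul_10 genome, the build the authors aligned to, on the strand of each gene. Positions count back from the annotated gene start, and capitals mark the exact matches named for each gene. Both strands were searched from 250 bases before to 50 bases after each start. The motifs were the CRE TGACGTCA, the TPA response element TGAGTCA, the Jun element TGACATCA, the TATA box TATAAA, the CCAAT box CCAAT, the GC box GGGCGG, the EGR site GCGTGGGCG and the CArG box.
*JUN*, chr1:165651287-165651386, plus strand, with 2 GC boxes on opposite strands, a CCAAT box and the Jun element: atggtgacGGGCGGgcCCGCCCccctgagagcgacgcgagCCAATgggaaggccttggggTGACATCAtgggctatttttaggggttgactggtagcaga
*EGR1*, chr6:135873882-135873981, plus strand, with 2 CArG boxes: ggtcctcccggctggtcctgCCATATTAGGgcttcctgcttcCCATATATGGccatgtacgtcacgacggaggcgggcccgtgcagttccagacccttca
*IER2*, chr19:12746833-12746932, plus strand, with the CRE and the TATA box: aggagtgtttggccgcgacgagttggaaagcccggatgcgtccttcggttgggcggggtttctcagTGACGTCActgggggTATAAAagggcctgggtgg
*JUND*, chr19:17818978-17819077, minus strand, with the CRE: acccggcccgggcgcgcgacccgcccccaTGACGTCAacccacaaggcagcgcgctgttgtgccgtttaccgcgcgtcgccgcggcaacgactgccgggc
*JUNB*, chr19:12369748-12369847, plus strand, with the CCAAT box and the TATA box: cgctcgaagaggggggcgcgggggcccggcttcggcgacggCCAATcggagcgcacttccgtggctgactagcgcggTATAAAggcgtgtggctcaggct
*FOS*, chr7:137394686-137394765, plus strand, with the TATA box: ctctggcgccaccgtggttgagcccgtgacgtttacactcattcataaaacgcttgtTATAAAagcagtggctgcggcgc

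The CRE was found in 2 of the 10 windows, those of *JUND* and *IER2*, and in 2.02% of the 20787 windows of protein-coding genes on assembled chromosomes. With 1 mismatch allowed, 7 of the 10 windows and 11.6% of all windows held it. The Jun element was found in *JUN*, 65 bases before the start, and in *ATF3*, 48 bases before it, and in 1.73% of all windows. The CArG box was found in *EGR1*, where its first bases lie 180 and 158 bases before the start, and in 1.20% of all windows. The TATA box was found in 4 windows (*FOS*, *FOSB*, *JUNB* and *IER2*), beside 11.2% of all. The GC box was in 8 windows and 48.4% of all, and the CCAAT box in 3 windows and 34.7% of all. The exact TPA response element and the EGR site were in none of the 10 windows, and in 3.61% and 0.847% of all. With 1 mismatch allowed, the TPA response element was in 3 of the 10 windows and 46.6% of all. These matches describe letters and not bound sites. The annotated start of *FOS* is the first base of its start codon, since its only model in this annotation has no leader, so its window lies closer to the coding part than the others do and its TATA box stands 188 bases before the start. The start of *ATF3* is that of its longest model, 48050 bases before the nearest start codon.

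**Figure D1:**
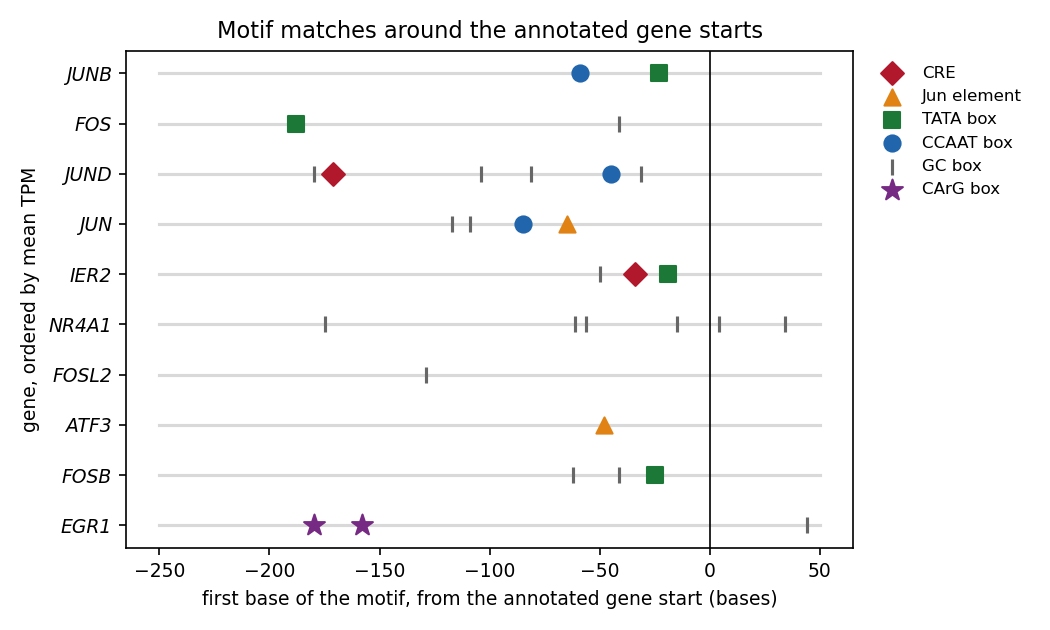
First base of each exact motif match (symbols) in bases from the annotated gene start, for the 10 genes, over the window from 250 bases before to 50 bases after the start. The 2 CArG boxes of *EGR1*, the CRE of *JUND* and *IER2* and the Jun element of *JUN* and *ATF3* all lie before the start.

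The libraries differed in depth and in content. A single read weighed 17.2 times as much in Rep1 as in Rep2, and 38.5% of the listed genes were at 0 in Rep1 against 12.5% in Rep2. Markers of optic nerve cells were present in both libraries and mostly lower in Rep1 (8 of 8 for oligodendrocytes and for fibroblasts, 7 of 8 for astrocytes). Most genes of the table were lower there too, with 11146 lower and 3547 higher of the 14693 genes above 0 in either library. The summed level of 8 oligodendrocyte markers was 45999 TPM in Rep1 against 212268 in Rep2, mostly from *MBP* (43721.5 and 199595 TPM). The sum of 8 astrocyte markers was 1148 and 7342 TPM, and that of 8 markers of meningeal fibroblasts 1802 and 16154 TPM. The 8 markers of photoreceptors and retina summed to 2990 TPM in Rep1 against 20.6 in Rep2, where *CRX* was listed at 0. Most of that sum came from *GNAT1* (2763 against 1.56 TPM) and *GNAT2* (199.9 against 0.687 TPM), and 6 of the 8 were higher in Rep1, *SAG* and *RPE65* not. The 8 neuronal markers summed to 2082 and 149 TPM, mostly from *SNAP25* (1121.5 and 4.99 TPM) and *SYT1* (769 and 11.8 TPM), and 5 of the 8 were higher in Rep1, *RBFOX3*, *NEFL* and *NEFM* not. Of the markers of microglia and macrophages, *CD163* was at 0 in Rep1, and the 8 summed to 224 and 499 TPM. The 8 markers of endothelial cells and pericytes summed to 89.4 and 329 TPM, with *VWF* at 0 in Rep1. The 6 listed markers of neutrophils and eosinophils were all at 0 in Rep1 and summed to 4.93 TPM in Rep2, and the 7 listed erythrocyte markers summed to 4538 and 1099 TPM. Their part in the results on the immediate early genes was not tested. Scaling by the median of ratios would raise Rep1 by 1.19 on the log2 scale against Rep2.

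All 10 immediate early genes were above 0 in both libraries, as were 69.2% of the 14693 genes with a value above 0 in either library. Together they took 4437 TPM in Rep1 against 5240 in Rep2, or 0.444% and 0.524% of each library. By the deposited values, *JUNB*, *FOS* and *JUND* stood above the other 7 genes in each library. The lengths behind the values of *FOS*, *JUND* and *JUN*, given below, are uncertain, and so is this ranking. In Rep1 the lowest of these 3 (*FOS*) was at 822 TPM and the highest of the others (*JUN*) at 558 TPM. In Rep2 the lowest of the 3 (*JUND*) was at 907 TPM and the highest of the others (*IER2*) at 460 TPM. *FOS*, *JUNB*, *JUND* and *IER2* were over the 90th percentile of the 14693 genes in both libraries. The lowest percentile of any member was 69.4 in Rep1 (*FOSL2*) and 83.3 in Rep2 (*EGR1*). A percentile within a library does not depend on how the libraries are scaled to each other. Since the nerves were measured in bulk, fewer cells of a type and less RNA per cell cannot be told apart.

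**Figure D2:**
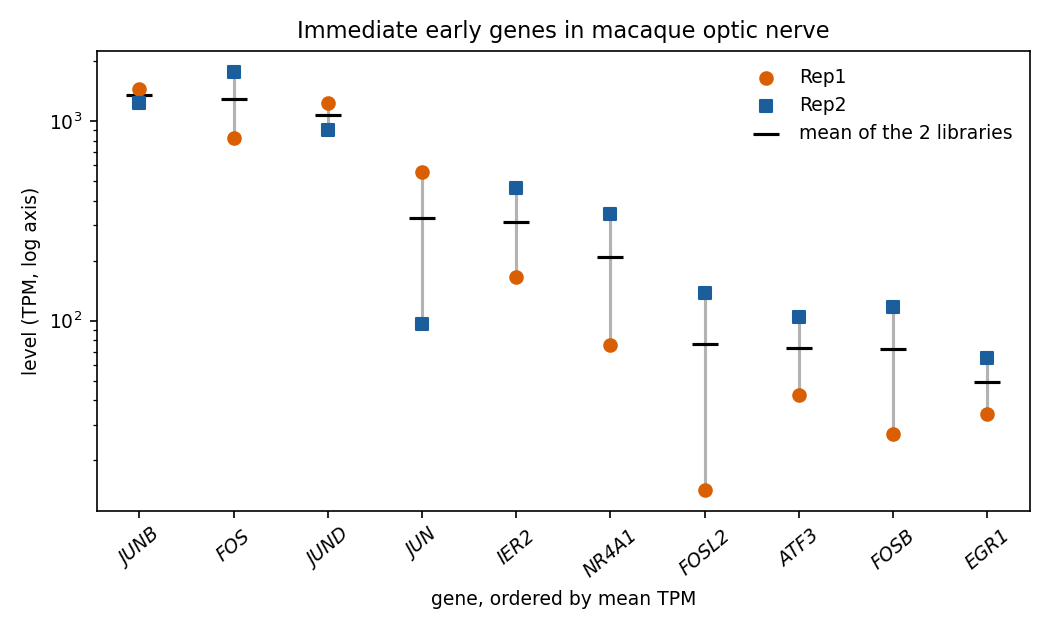
Level of each gene in TPM (log axis) in Rep1 (circles) and Rep2 (squares), with the mean of the 2 libraries as a black dash and a grey line joining the libraries. *JUNB*, *FOS* and *JUND* stand highest in both libraries, and *JUN* has its circle far above its square.

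Jun proteins form AP-1 dimers with each other or with a Fos protein. *JUNB* (chr19:12369848-12371689, plus strand), whose product often acts against c-Jun in growth control, was at 1459 TPM in Rep1 against 1239 in Rep2, with a mean of 1349 ± 156 TPM (SD, n = 2 libraries). *JUND* (chr19:17816964-17818877, minus strand), the Jun gene known for steady expression in resting cells, was at 1239 TPM in Rep1 against 907 in Rep2, with a mean of 1073 ± 235 TPM (SD, n = 2). These levels were at percentiles 99.3 and 99.6 for *JUNB* and at 99.1 and 99.4 for *JUND* in Rep1 and Rep2. Both genes were slightly higher in Rep1, by 0.24 for *JUNB* and 0.45 for *JUND* on the log2(TPM + 1) scale, which was 0.0922 and 0.177 times the SD of such a difference among the 200 genes nearest in mean level. Their libraries thus lay closer together than 1 SD of genes of like level.

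*JUN* (chr1:165651412-165653728, plus strand), which encodes c-Jun, was the exception within its family. It was at 558 TPM in Rep1 against 96.3 in Rep2, with a mean of 327 ± 327 TPM (SD, n = 2). Its level was 5.80-fold higher in Rep1, with a log2(TPM + 1) difference of 2.52 that came to 1.04 SDs of genes of like level. It was the only member at least 2-fold higher in Rep1, in a table where 14.8% of the 14693 genes were. *JUN* stood at percentile 97.9 in Rep1 and 89.0 in Rep2, and its rank among the 10 genes went from 4 to 9. Those values rested on at least 1877 reads in Rep1 and 5563 in Rep2. A gene on the opposite strand, *LOC100424766*, overlaps the exon of *JUN*. The paper describes libraries made from fragmented cDNA with a kit for DNA and names no step that keeps the strand. The sources used here do not give the use of strand in counting either, so reads of the 2 genes may not have been told apart.

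The Fos genes encode the subunits that cannot form stable dimers among themselves and need a Jun partner. *FOS* (chr7:137394931-137397381, plus strand) was at 822 TPM in Rep1 against 1772 in Rep2, with a mean of 1297 ± 672 TPM (SD, n = 2). It was at percentile 98.5 in Rep1 and 99.8 in Rep2, and was the highest of the 10 genes in Rep2 and the third in Rep1. Its level was 2.16-fold higher in Rep2, a log2(TPM + 1) difference (Rep1 minus Rep2) of -1.11, which was 0.431 SDs and lay next to the median of all genes (-1.07). After scaling by the median of ratios the difference of *FOS* was 0.083, and with the rescaling by optic nerve markers it was 1.36, so neither direction held for it.

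*FOSB* (chr19:45527685-45534869, plus strand), known for a truncated, long-lived splice form that builds up with repeated stimulation, was at 27.0 TPM in Rep1 against 117 in Rep2, with a mean of 72.0 ± 63.6 TPM (SD, n = 2). *FOSL2* (chr13:80534960-80556218, minus strand), which encodes Fra-2, was at 14.1 TPM in Rep1 against 138 in Rep2, with a mean of 75.9 ± 87.5 TPM (SD, n = 2). Its level was thus 9.80-fold higher in Rep2, with a log2(TPM + 1) difference of -3.20 that came to 1.48 SDs, the widest among the members. *FOSL2* was lower in Rep1 under each of the 4 alternatives, from -3.39 to -0.82. Only the median of ratios (-2.05) and the rescaling by optic nerve markers (-0.82) could have turned its sign. The Rep1 value of *FOSL2* rested on a minimum of 14 reads, the fewest of the group. *FOSB* differed by -2.07, or 0.949 SDs, and changed to 0.35 when Rep1 was rescaled by its optic nerve markers. The fourth Fos gene, *FOSL1*, which encodes Fra-1 and is not among the members, had 51.7 TPM in Rep2 but was listed at 0 in Rep1.

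Shares within a family do not depend on the scaling between the libraries, but they do depend on the gene lengths, which are uncertain here. *FOS* made up 95.2% of the summed TPM of the 4 Fos genes in Rep1 and 85.2% in Rep2 (90.2% ± 7.06, SD, n = 2). *FOSB* made up 3.13% and 5.63%, *FOSL2* 1.63% and 6.63%, and *FOSL1* 2.49% in Rep2. In the Jun family *JUNB* held 44.8% in Rep1 and 55.3% in Rep2, and *JUND* 38.1% and 40.5%. *JUN* held 17.1% in Rep1 and 4.29% in Rep2. By the deposited values, the order of the shares was *JUNB*, *JUND*, *JUN* in both libraries. The smallest length behind *JUN* was 3321 bases against an annotated 2317, and that behind *JUND* 1185 against 1914. The order of *JUND* and *JUN* in Rep1 is therefore uncertain. The summed Fos level over the summed Jun level was 0.265 in Rep1 (863 over 3256 TPM) and 0.927 in Rep2 (2078 over 2242 TPM). By these values the Jun genes exceeded the Fos genes in both libraries, by a wider margin in Rep1. The ratio of *FOS* to *JUN* was 1.47 in Rep1 and 18.4 in Rep2, whereas that of *JUNB* to *JUND* was 1.18 and 1.37 and that of *FOS* to *EGR1* was 24.2 and 27.3.

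**Figure D3:**
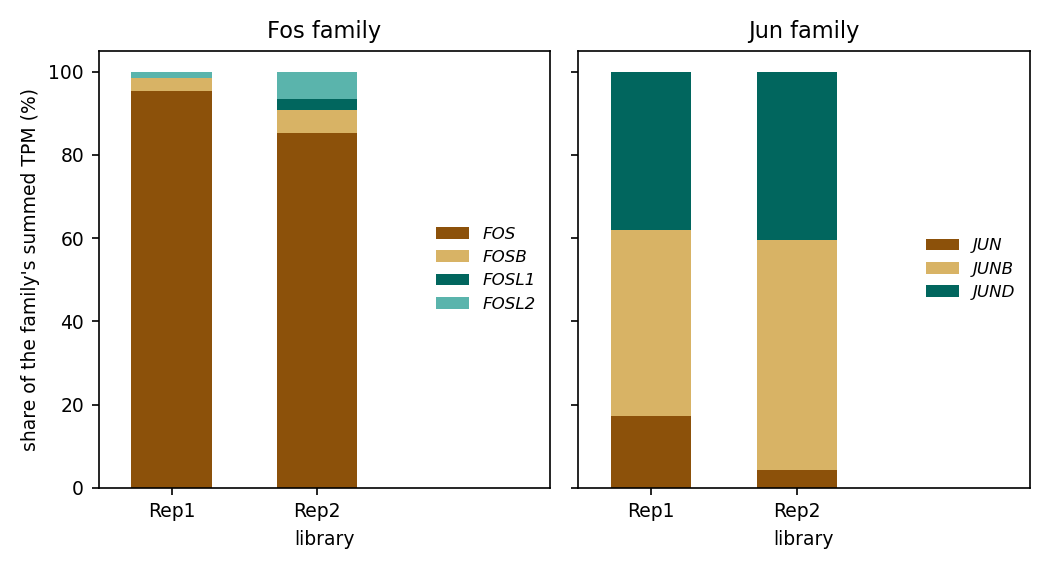
Share of each gene in the summed TPM of the Fos family (left) and of the Jun family (right) in Rep1 and Rep2, as stacked bars in percent. *FOS* takes 95.2% and 85.2% of its family, and *JUN* takes 17.1% in Rep1 and 4.29% in Rep2.

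Of the members outside AP-1 proper, *IER2* (chr19:12746933-12748795, plus strand) was the highest, at 165 TPM in Rep1 against 460 in Rep2, with a mean of 313 ± 209 TPM (SD, n = 2). *NR4A1* (chr11:51642226-51666836, plus strand), which encodes Nur77, was at 75.8 TPM in Rep1 against 343 in Rep2, with a mean of 209 ± 189 TPM (SD, n = 2). Both were higher in Rep2, with differences of -1.47 for *IER2* and -2.16 for *NR4A1*, which were 0.584 and 0.943 SDs, but these turned to 0.99 and 0.29 when Rep1 was rescaled by its optic nerve markers. *ATF3* (chr1:70055871-70109651, plus strand) was at 42.6 TPM in Rep1 against 104 in Rep2, with a mean of 73.3 ± 43.4 TPM (SD, n = 2). *EGR1* (chr6:135874082-135877338, plus strand) was at 34.0 TPM in Rep1 against 64.8 in Rep2, with a mean of 49.4 ± 21.8 TPM (SD, n = 2). These were the members with the lowest means apart from *FOSB* and *FOSL2*, and *EGR1* had the lowest arithmetic mean. Their differences of -1.27 and -0.91 were 0.545 and 0.431 SDs, and changed to 1.17 and 1.52 with the rescaling by markers, that of *EGR1* also to 0.26 with the median of ratios. The *ATF3* and *NR4A1* loci each hold a long non-coding RNA gene on the opposite strand (*LOC106993678* and *LOC114670851*), which touches no annotated exon of either gene.

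By the mean of log2(TPM + 1), the order from high to low was *JUNB*, *FOS*, *JUND*, *IER2*, *JUN*, *NR4A1*, *ATF3*, *FOSB*, *EGR1* and *FOSL2*. Of the 9 pairs of neighbours in this order, 8 lay under 1 SD of a single library apart, from 0.0458 SDs for *EGR1* over *FOSL2* to 0.773 SDs for *NR4A1* over *ATF3*. Only *JUND* over *IER2*, at 1.08 SDs, exceeded that spread. Among all 45 pairs of members, 33 had the same order in both libraries and 12 were over 2 SDs apart. Of the 12 pairs in opposite order, 5 held *JUN*.

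The lengths behind these values bear on the order between genes, though not on the difference of a gene between libraries. The ratios of the values give, for each gene, the smallest length that the authors can have divided by, and whole multiples of it are also possible. For *JUN* this was 3321 bases, whereas its only annotated transcript in Mmul_10 has 2317, so with the annotated length its level would be at least 1.43 times as high relative to the table. For *IER2* it was 2085 bases against 1863. *JUNB* had 1815 against 1842. For *FOS* the smallest length was 815 bases and its annotated transcript has 1143, which is no whole multiple of 815, and for *NR4A1* it was 795 bases against transcripts of 2381 to 2730. For *JUND* it was 1185 bases against 1914 and for *EGR1* 1046 against 2576, again with no whole multiple that matches. For *FOSB* the smallest length was 3217.5 bases against transcripts of 3648 to 5523. *FOSL2* had 983 against 1794 to 3164, and *ATF3* 858 against 925 to 6097. Levels of the members other than *JUNB* relative to other genes, and so the order of the members, are uncertain to that extent.

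The median difference of the 10 members between the libraries was -1.19, beside -1.07 over all 14693 genes. At least 2-fold lower in Rep1 were 6 of the 10 members (*FOS*, *FOSB*, *FOSL2*, *ATF3*, *NR4A1* and *IER2*), beside 51.3% of all genes. Set against the median of all genes, the 3 Jun genes lay above it, *JUN* by 3.59, *JUND* by 1.52 and *JUNB* by 1.30. *EGR1* (0.15), *FOS* (-0.042) and *ATF3* (-0.20) lay close to it. *IER2* (-0.41), *FOSB* (-1.01), *NR4A1* (-1.10) and *FOSL2* (-2.14) lay below it. The SD about genes of like level was exceeded by *JUN* and *FOSL2*. With 1 condition no test of a difference was possible.

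**Figure D4:**
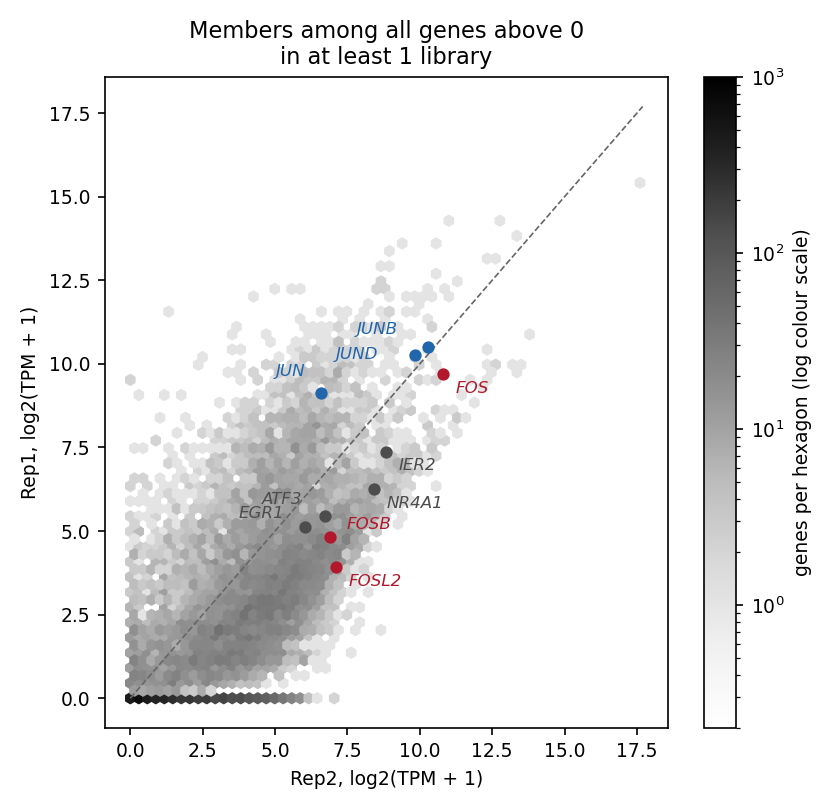
Level in Rep1 against Rep2, both as log2(TPM + 1), for the 14693 genes with a value above 0 in either library (grey hexagons, darker for more genes, log colour scale). The dashed line marks equal levels, Fos genes are red, Jun genes blue and the other members dark grey, and the 3 Jun genes are the members above the line.

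All 15 genes of a list of other leucine zipper partners of AP-1 were listed. Their median difference was -0.65 (0.51 with the rescaling by markers). Higher in Rep1 were 5 and lower 10, beside 3547 and 11146 of all 14693 genes. At least 2-fold apart were 4 and 7 of them, beside 14.8% and 51.3% of all genes. *ATF7* was at 102 TPM in Rep1 against 94.8 in Rep2 and *ATF4*, the effector of the integrated stress response, at 55.3 and 75.3 TPM. *ATF2*, a Jun partner on CRE-like sites, was at 165 TPM in Rep1 against 20.5 in Rep2. *NFIL3* was at 4.26 TPM in Rep1 against 91.7 in Rep2. *FOSL1*, *BATF2* and *MAFK* were at 0 in Rep1 and above 0 in Rep2.

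The listed relatives of *EGR1*, *NR4A1* and *IER2* stood below the member of their own family. This did not hold for *ATF3*, since *ATF2*, *ATF7* and *ATF4* stood above it in Rep1 and below it in Rep2. *EGR2* was at 13.5 TPM in Rep1 against 4.87 in Rep2, *EGR3* at 8.56 and 8.47 TPM, and *EGR4* was listed at 0 in Rep1 and at 0.775 TPM in Rep2. *NR4A2* was at 10.9 and 7.56 TPM and *NR4A3* at 1.04 and 3.50 TPM. *EGR1* and *NR4A1* thus held the highest level of their families in both libraries. *IER5* was at 111 TPM in Rep1 against 41.3 in Rep2, *IER5L* at 23.0 and 9.22 TPM and *IER3* at 3.05 and 10.6 TPM, so *IER2* was also above each of these in both.

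Of the 36 other immediate early genes, 34 were listed, and *CCN1* and *CCN2* were not analysed here. Of these 34, 13 were higher and 21 lower in Rep1, beside 3547 and 11146 of all 14693 genes. At least 2-fold apart were 9 and 16 of them, beside 14.8% and 51.3% of all genes. Their median difference was -0.92, which changed to 0.12 with the median of ratios and to 1.39 with the rescaling by markers. *NFKBIA*, the inhibitor of NF-kB that NF-kB itself induces, was at 768 TPM in Rep1 against 1109 in Rep2. *DUSP1*, a phosphatase that switches off MAP kinases, was at 402 and 804 TPM. *ZFP36*, which binds AU-rich elements and speeds the decay of short-lived mRNAs, was at 195 and 1192 TPM. *SGK1*, a kinase induced by serum and glucocorticoids, was at 1470 TPM in Rep1 against 468 in Rep2, and *BTG1*, an antiproliferative gene, at 2287 and 91.8 TPM. These 5 had the highest means of the list, and they split in direction, with *SGK1* and *BTG1* higher in Rep1 as *JUN* was. The differences of *NFKBIA* (-0.53) and *DUSP1* (-1.0) are smaller than the shift of 1.19 that the median of ratios applies, so their direction turns with that scaling. *ARC* had 48.2 TPM in Rep2 and, like *EGR4*, was listed at 0 in the other library.

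By the deposited values, upstream regulators, the kinases and factors that act on the promoters of these genes, leaned the other way. Of 25 genes, 23 were listed and 22 were above 0, with a median difference of 0.68. That median was 1.72 with the median of ratios and 3.04 with the rescaling by markers. The median of the other immediate early genes was then 0.12 and 1.39, so with these scalings the lists did not differ in direction. In Rep1, 14 were higher and 8 lower, of which 9 and 3 were at least 2-fold apart. Of all 14693 genes, 3547 were higher and 11146 lower in Rep1, with 14.8% at least 2-fold higher and 51.3% at least 2-fold lower. *RPS6KA1*, a ribosomal S6 kinase, was at 871 TPM in Rep1 against 57.4 in Rep2, and *MAP2K4*, which activates the Jun kinases, at 424 and 34.6 TPM. *CREB1*, which binds the CRE, was at 290 and 53.0 TPM, and its coactivator *CREBBP* at 181 and 52.5 TPM. These 4, among the highest means of the list, were all higher in Rep1. They were picked by mean TPM, which for *RPS6KA1* and *MAP2K4* came mostly from Rep1, so their direction adds nothing to the counts. *RPS6KA2*, the highest of the list in Rep2, went the other way, at 9.89 TPM in Rep1 against 59.5 in Rep2. The summed levels of the retinal and of the neuronal markers, though not every marker, were higher in that library as well, and their part in these differences was not tested.

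**Figure D5:**
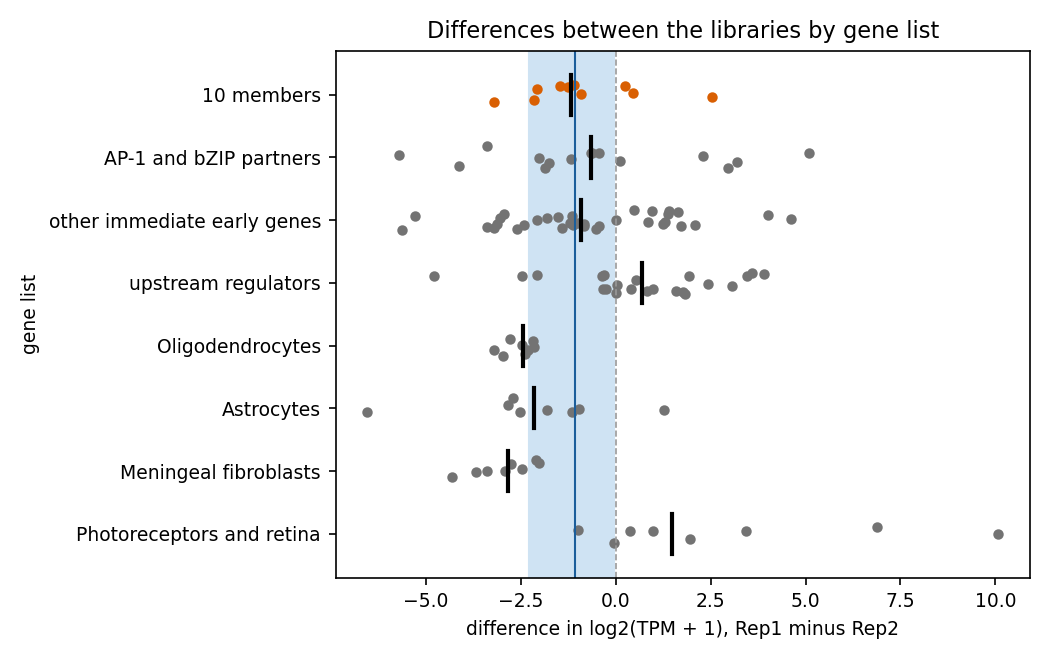
Difference in log2(TPM + 1), Rep1 minus Rep2, of each gene with a value above 0 in either library (points, spread vertically at random) for the 10 members, 3 related lists and 4 marker lists, with the median of each list as a black bar. The blue line and band are the median (-1.07) and the interquartile range over 14693 genes, and the median of the members (-1.19) lies next to that line.

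The genes most like each member were taken as the nearest in the plane of log2(TPM + 1) in Rep1 and Rep2, which with 2 libraries is a likeness of levels only. Next to *FOS* stood *CRYAB* (958 TPM in Rep1 against 1594 in Rep2) and *HSP90AA1* (735 and 1513 TPM), at distances of 0.269 and 0.278. Next to *JUNB* stood *ITM2C*, at 0.262, and *RAB7A*, at 0.488, and next to *JUND* stood *RAB7A*, at 0.0398, and *GABARAP*, at 0.335. Few genes shared the place of these 3, since within a distance of 0.5 there were 4 genes for *FOS*, 2 for *JUNB* and 3 for *JUND*. Next to *JUN* stood *PRKCB* (571 and 90.4 TPM) and *PNISR* (483 and 95.3 TPM), among 40 genes within that distance. The lower members had many neighbours, from 28 genes for *IER2* to 209 for *FOSB*. Nearest to *IER2* were *ITGB1* and *EPB41L3*, to *NR4A1* *PIP4K2A* and *RPL13A*, to *ATF3* *TPST1* and *TWF1*, to *EGR1* *ZNF451* and *FTSJ3*, to *FOSB* *ID4* and *MARCH2*, and to *FOSL2* *SERINC5* and *CDV3*.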

How the data were processed

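Total RNA of 2 macaque optic nerve libraries was sequenced after SMARTer v4 low-input amplification. Per the labels and methods, the authors used FastQC 0.11.9, Trim Galore 0.6.6, STAR 2.7.1a on Mmul_10 and featureCounts 1.5.3, and deposited TPM values, so each library sums to 1000000 and its number of reads is not stated in the table. Gene lengths, strand and multiple alignments are not given in the sources used here. Smallest read numbers and lengths were worked out from the ratios of the deposited values (tolerance 1e-12), taking lengths as multiples of 0.5 bases, and gave whole reads for 99.99% of the 10168 genes above 0 in both libraries. They are lower bounds. The smallest length lay within 1 base of the annotated hairpin for 3 of 4 microRNAs. Libraries were compared as log2(TPM + 1), where changes of low genes come out too small, and each SD was that of the 200 genes closest in mean, with 0 as its centre. Windows of 300 bases were read with RefSeq gene starts of Mmul_10. Python 3.11, numpy 2.4.6, pandas 2.3.3, pysam 0.24.0 and matplotlib 3.10.9 were used, and the steps were tested on simulated data. The members, lists, rules and alternatives were chosen with earlier results of these data known. The text names all members, the 5 genes with the highest mean of each related list (some are not reported here), members of the Egr, Nr4a and Ier families, and the 2 genes nearest to each member. *FOSL1*, *BATF2*, *MAFK* and *ARC* were named after their values were seen, for their 0 in Rep1, and *RPS6KA2* likewise, for its level in Rep2. Alternatives were a pseudocount of 0.1, the median of ratios, Rep1 scaled to 31 optic nerve markers of Rep2, leaving out the 10 most abundant genes, other gene sets, the geometric mean, 500 nearest genes, an SD about the mean difference, a mismatch in motifs and each library alone.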

Additional observations from a re-analysis of the deposited data

How the results depend on the processing

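No paired analysis was possible because only 1 group was sampled. Scaling decided the direction of most differences between the libraries. With the median of ratios, the median difference of the members was -0.0067, *FOS* (0.083), *EGR1* (0.26) and the median of the other immediate early genes (0.12) changed sign, and 3 members were at least 2-fold higher and 1 lower in Rep1. When Rep1 was rescaled by its optic nerve markers, a factor of 5.53, the median of the members changed to 1.26, 6 were at least 2-fold higher and 0 lower, and *FOS* (1.36), *FOSB* (0.35), *EGR1* (1.52), *ATF3* (1.17), *NR4A1* (0.29) and *IER2* (0.99) changed sign. The medians of the AP-1 partners (0.51), the other immediate early genes (1.39), oligodendrocytes (0.032) and endothelial cells and pericytes (0.76) also did. With a pseudocount of 0.1 that of erythrocytes did (-0.49). Both scalings raise Rep1 by construction. *JUN*, *JUNB* and *JUND* were higher and *FOSL2* lower in Rep1 under all 4 alternatives of the difference. A change of pseudocount keeps the sign of a difference. For the Jun genes, only leaving out the 10 most abundant genes could thus have turned it. There *JUN* was at 2.35, *JUND* at 0.28 and *JUNB* at 0.064. Leaving out those genes moved *FOSL2* further down (-3.39). For *FOSL2*, only the median of ratios (-2.05) and the rescaling by markers (-0.82) could thus have turned the sign. The mean of *JUN* ran from 96.3 to 558 TPM between the single libraries. Read numbers are minima, and copies made by amplification are not independent, so the precision of low Rep1 values, such as *FOSL2*, is unknown.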
